A study of Homo sapiens with 6 samples.

Results

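The genes described here are MYC, its network of partner proteins and the factors that build ribosomes, 50 genes chosen by name from the 15585 genes of the deposited count table. They comprise MYC and MYCN, 8 partners or binders of the MYC network (MAX, MXD1, MXD3, MXD4, MXI1, MNT, MLX and MYCBP) and 40 ribosome biogenesis genes. Their expression was compared between U2OS cells transfected for 48 h with control siRNA (siCTR, 3 libraries) and U2OS cells transfected for 48 h with siRNA against LSD1 (siLSD1, 3 libraries). U2OS is a human osteosarcoma cell line, and all 6 libraries came from this line without any other labelled treatment. LSD1, encoded by KDM1A, is a histone demethylase that removes methyl groups from lysine 4 and lysine 9 of histone H3. The RNA-seq experiment of the study asked whether depletion of LSD1 alters the expression of genes needed for DNA replication.

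MYC is a transcription factor that binds DNA as a heterodimer with MAX at E-box sequences, and many genes of ribosome production are among its best known targets. MXD proteins, MXI1 and MNT compete with MYC for MAX and repress transcription at the same sequences. Ribosome biogenesis starts in the nucleolus, where RNA polymerase I transcribes the ribosomal DNA, small nucleolar ribonucleoproteins (snoRNPs) modify the transcript, and separate sets of assembly factors cut, fold and export the small and the large subunit. Osteosarcoma cells proliferate and depend on this pathway for growth.

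LSD1 mRNA was clearly reduced. siCTR replicates 1, 2 and 3 held 6140, 6493 and 6573 KDM1A reads, against 1110, 1198 and 1246 in siLSD1, for a log2 fold change of -2.44 (SE 0.11, adjusted p = 2.27e-07 with edgeR's quasi-likelihood test and Benjamini-Hochberg adjustment). The libraries held 12513511 to 13561344 counted reads, and 11844 genes with enough reads were tested. Summed FPKM (reads scaled to gene length and to the reads counted in the library) of mesenchymal and osteoblast lineage markers was 530.0 to 584 in siCTR and 550.0 to 578 in siLSD1 libraries, mostly from VIM and ALPL, and the osteoblast genes RUNX2, SP7 and SPARC were near 0. Summed epithelial markers stood at 9.81 to 12.9 FPKM and summed blood markers at 0.86 to 2.0 FPKM over the 6 libraries. Within the epithelial list CDH1 was higher without overlap (log2 fold change 0.77, adjusted p = 0.0699 with edgeR's quasi-likelihood test and Benjamini-Hochberg adjustment) and CLDN7 was at -0.50. Some libraries stood apart within their group. Across all genes, siCTR replicate 2 differed from the other siCTR libraries in a way that followed gene length (Spearman rho -0.499). siLSD1 replicates 1 and 3 deviated in opposite ways with GC content (rho 0.704 and -0.695). The deviations of siCTR replicates 1 and 3 with GC content had the same signs by number (rho 0.403 and -0.303). No label says whether the libraries of a group came from separate cultures, so the p-values measure the spread between these samples, which may be technical.

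The word CACGTG, the E-box preferred by MYC and MAX, was common in the promoters of these genes. RefSeq promoters (GRCh38.p14, 250 bases before to 50 bases after each listed start) were at hand for 40 of the 50 genes, and 16 of them (40%) held the word, against 12.7% of the 9372 tested genes with a promoter, 8.77% of all genes and 7.26% of all promoters. The word reads the same on both strands, so 1 search covered both, and no other motif was searched. The windows below come from the 8 named genes of the set that hold it, on the strand of the gene, with 20 bases on each side and the word in capitals. They are shown because this is the word that MYC and MAX are known to recognise. They cover a network member (MNT), a box C/D snoRNP protein (FBL), small and large subunit factors and a nucleolar helicase.
MNT, chr17:2401228-2401273, minus strand: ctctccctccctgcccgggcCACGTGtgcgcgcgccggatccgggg
FBL, chr19:39846348-39846393, minus strand: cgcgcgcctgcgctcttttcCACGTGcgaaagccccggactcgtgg
UTP20, chr12:101280075-101280120, plus strand: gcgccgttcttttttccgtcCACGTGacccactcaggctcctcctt
PNO1, chr2:68157877-68157922, plus strand: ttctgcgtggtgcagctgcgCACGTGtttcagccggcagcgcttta
PES1, chr22:30591872-30591917, minus strand: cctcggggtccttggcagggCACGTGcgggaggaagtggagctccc
MRTO4, chr1:19251799-19251844, plus strand: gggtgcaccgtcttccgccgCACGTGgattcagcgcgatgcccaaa
GNL3, chr3:52686018-52686063, plus strand: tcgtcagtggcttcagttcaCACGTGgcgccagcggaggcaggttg
DDX21, chr10:68956596-68956641, plus strand: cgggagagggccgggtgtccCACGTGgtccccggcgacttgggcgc
In 7 of these 8 genes the word began close to the listed start, between position -31 in DDX21 and position 15 in MRTO4, whereas in MNT it began at position -193 (position 1 is the first base of the transcript). A match of these letters is a description and shows no binding. The promoter entries of MYC, TCOF1, NOLC1, NOP58, RRP12, BOP1, RRS1, RRP1B, DDX18 and URB2 were missing.

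Of the 50 genes, 47 had enough reads to be tested, and MYCN, RRN3 and FBL did not. Most of the 47 changed little upon LSD1 knockdown. Their median log2 fold change (siLSD1 over siCTR) was -0.07, against -0.01 over all genes tested, with 14 genes above 0 and 33 below. Leaving out siCTR replicate 2 gave a median of -0.045, and leaving out siCTR replicate 3 gave -0.102, the extremes over the 6 libraries. In all genes tested, 5598 lay above 0 and 6246 below. At an adjusted p under 0.05, 2 of the 47 genes (4.26%) were called, against 1.44% of all genes tested. Both, TCOF1 and NOLC1, were upregulated, and no gene of the set was downregulated at this threshold. The set was chosen with earlier results of these data known, so its shares beside those of all genes are a description. At an unadjusted p under 0.05, the same 2 genes were higher (4.26%, against 7.48% of all genes) and 5 were lower (10.6%, against 6.55%), namely MYCBP, UTP15, PNO1, BOP1 and MRTO4. The number of lower genes depended on single libraries. Without siCTR replicate 1 it was 6 (12.8%, against 6.58% of all genes), and without siLSD1 replicate 3 it was 4 (8.51%, against 6.0%). It was 3 without siCTR replicate 3 (6.38%, against 6.05%) and 2 without siCTR replicate 2 (4.26%, against 5.69%). Without siLSD1 replicate 1 it was 2 (4.26%, against 7.43%), and without siLSD1 replicate 2 it was 1 (2.13%, against 3.79%). The number of higher genes was 2 or 3 in each case. The remaining 40 genes had log2 fold changes between -0.29 and 0.27.

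The median half-width of the 95% confidence interval was 0.279 on the log2 scale, and for 30 of the 47 genes the whole interval lay within 0.5 of no change on either side. Reads of these libraries are from bulk RNA, so a change in the share of cells that express a gene and a change in RNA per cell cannot be told apart. Values are relative to the reads of each library and say nothing of the total amount of RNA per cell.

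**Figure D1:**
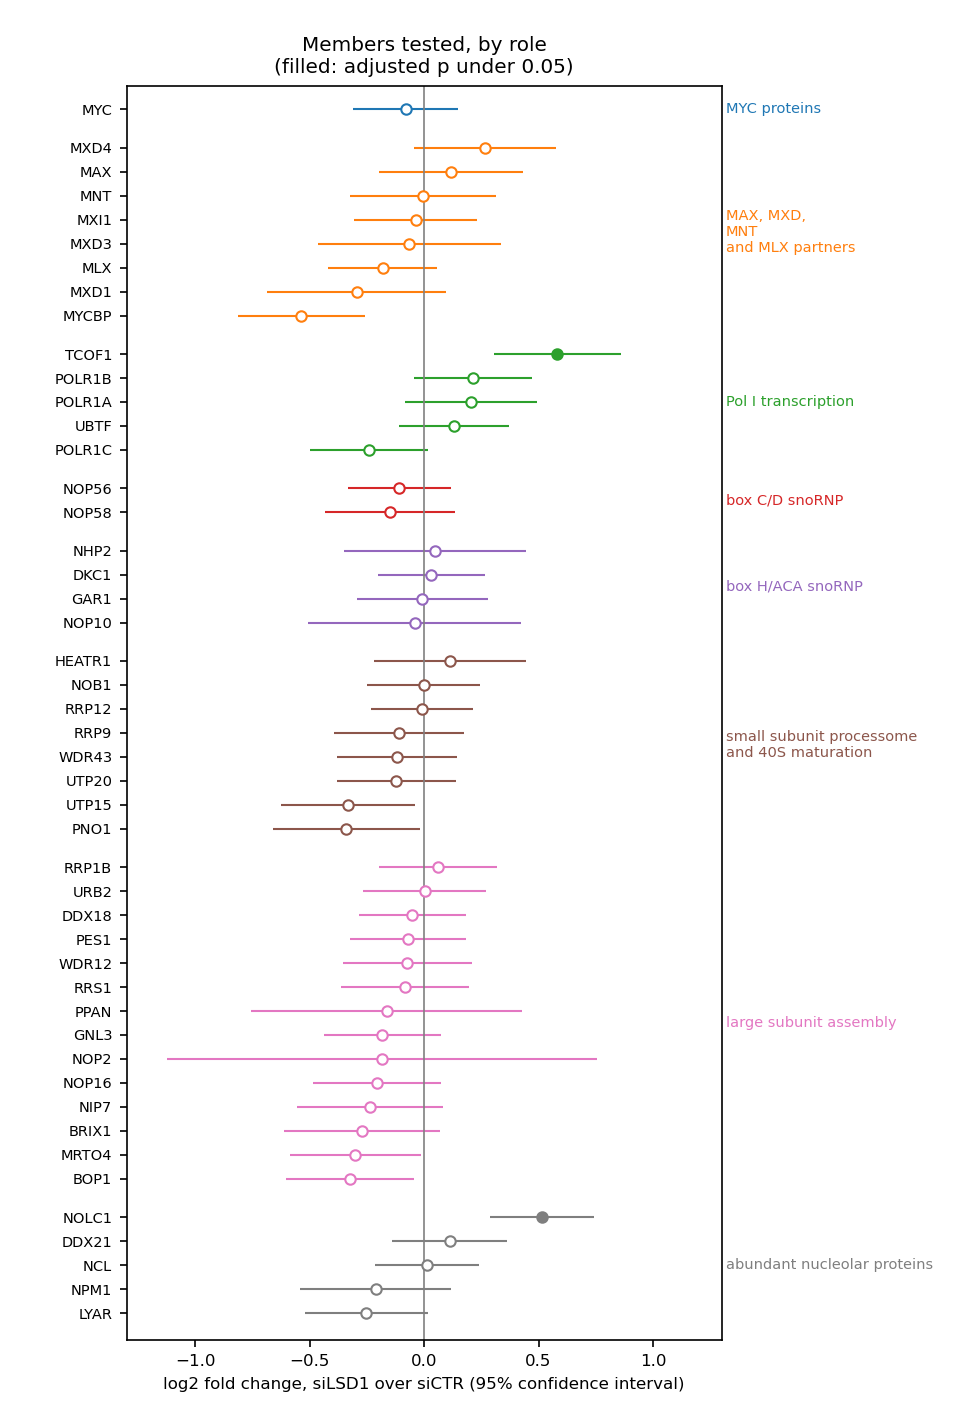
Log2 fold change (siLSD1 over siCTR) with its 95% confidence interval for the 47 tested genes, grouped by role, where filled points have an adjusted p under 0.05. TCOF1 at 0.58 and NOLC1 at 0.51 lie apart from the other genes on the right, and MYCBP at -0.54 lies farthest to the left.

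MYC itself was expressed at nearly the same level in both groups. MYC (chr8:127735434-127742951 by the GENCODE annotation of GRCh38, plus strand) had 275, 271 and 260.0 CPM (reads scaled to library size with TMM factors) in the siCTR libraries and 265, 264 and 233 CPM in the siLSD1 libraries. The ranges overlapped, and the lowest value was that of siLSD1 replicate 3. The mean was 269 ± 7.94 CPM in siCTR and 254 ± 18.2 CPM in siLSD1 (SD, n = 3 each), a log2 fold change of -0.08 (SE 0.11, 95% confidence interval -0.31 to 0.15) with an adjusted p of 0.768 with edgeR's quasi-likelihood test and Benjamini-Hochberg adjustment. Leaving out each library in turn gave log2 fold changes from -0.11 to -0.02. MYCN, the paralogue found mainly in neural cells, had 0, 1 and 3 reads in siCTR and 3, 4 and 0 reads in siLSD1, too few for a test. MYC stood at 89.5 ± 3.01 FPKM in siCTR.

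The obligate partner of MYC and the antagonists that share it also showed no change past the threshold. MAX had 36.1, 41.2 and 35.3 CPM in siCTR and 44.8, 44.9 and 32.6 CPM in siLSD1 (log2 fold change 0.12, SE 0.15, 0.04 to 0.26 with 1 library left out), with both the 2 highest and the lowest values in siLSD1 libraries. MXI1, a repressor that pairs with MAX, ranged from 25.5 to 28.6 CPM in siCTR and from 24.7 to 27.5 CPM in siLSD1 (-0.04). MNT, the most widely expressed of these repressors, ranged from 35.1 to 44.4 CPM in siCTR and from 31.5 to 42.5 CPM in siLSD1 (0.00 after rounding, SE 0.15). The other antagonists and MLX, which pairs with MXD proteins and with the glucose-sensing factor MLXIP, had log2 fold changes from -0.29 (MXD1) to 0.27 (MXD4), and none passed the unadjusted threshold. With 1 library left out they lay between -0.39 and -0.15 for MXD1 and between 0.14 and 0.40 for MXD4. These extremes were named after their values were seen.

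MYCBP, a small protein that binds the amino-terminal part of MYC, had the lowest log2 fold change of the 47 genes. MYCBP (chr1:38862493-38873368, minus strand) was counted at 470, 519 and 434 reads with control siRNA and at 323, 315 and 346 reads after LSD1 knockdown. Scaled to CPM, these were 36.2, 40.4 and 32.3 in siCTR and 24.1, 25.3 and 25.7 in siLSD1. Every siLSD1 library lay below every siCTR library, and the siLSD1 values spread much less than the siCTR values. The mean level went from 36.3 ± 4.07 CPM to 25.0 ± 0.827 CPM (SD, n = 3 each), a difference of -31.1% and a log2 fold change of -0.54 (SE 0.13, 95% confidence interval -0.82 to -0.26). The unadjusted p was 0.00111 and the adjusted p was 0.0624 with edgeR's quasi-likelihood test and Benjamini-Hochberg adjustment, so the call was not made. With a GC and length correction, the log2 fold change was -0.50 and the adjusted p was 0.012 by the same test. With 1 library left out the adjusted p lay between 0.0927 and 0.273.

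Of the 6 genes of ribosomal DNA transcription, 5 were tested, with a median log2 fold change of 0.21, and 4 of the 5 were above 0. Without siCTR replicate 2 the median was 0.12, with the same number above 0. The 10 other genes of this step that were tested had a median of -0.06, with 8 below 0 (medians from -0.108 to -0.007 with 1 library left out). TCOF1, the gene that encodes treacle, a nucleolar phosphoprotein needed for transcription by RNA polymerase I and mutated in Treacher Collins syndrome, was the only one of the 5 past the threshold. TCOF1 (chr5:150357629-150400308, plus strand) had 3665, 2657 and 3677 reads in siCTR and 5263, 4699 and 5032 reads in siLSD1. Scaled to library size these were 282, 207 and 273 CPM against 392, 377 and 373 CPM. All siLSD1 libraries lay above all siCTR libraries and close to each other, and siCTR replicate 2 was well below the other siCTR libraries.

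The mean of TCOF1 was 254 ± 41.2 CPM in siCTR and 381 ± 10.1 CPM in siLSD1 (SD, n = 3 each), a rise of 49.8%. The log2 fold change was 0.58 (SE 0.13, 95% confidence interval 0.31 to 0.86) with an adjusted p of 0.0418 with edgeR's quasi-likelihood test and Benjamini-Hochberg adjustment. The transcript is long, and siCTR replicate 2 was low in long genes. Without that library the log2 fold change was 0.46 and the adjusted p was 0.0451 by the same test. The call was lost when libraries were scaled by their size alone (adjusted p = 0.0541 by the same test) and when siCTR replicate 3 or any 1 of the siLSD1 libraries was left out (adjusted p from 0.0798 to 0.167), while the log2 fold change stayed between 0.46 and 0.66.

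The subunits of RNA polymerase I had smaller log2 fold changes, and their difference from TCOF1 was not tested. POLR1A, the largest subunit, had 172, 123 and 171 CPM in siCTR and 183, 174 and 181 CPM in siLSD1 (log2 fold change 0.21, SE 0.13, adjusted p = 0.514 with edgeR's quasi-likelihood test and Benjamini-Hochberg adjustment). The groups did not overlap, but the distance between the highest siCTR and the lowest siLSD1 library was small, and the log2 fold change was 0.07 without siCTR replicate 2 and 0.19 to 0.28 with any other library left out. POLR1B, the second largest subunit, ranged from 98.9 to 128 CPM in siCTR and from 126 to 139 CPM in siLSD1 (0.21, SE 0.12), and its log2 fold change was 0.12 without siCTR replicate 2. UBTF, which encodes the ribosomal DNA binding factor UBF, ranged from 153 to 169 CPM in siCTR and from 160 to 192 CPM in siLSD1 (0.13, SE 0.11, 0.06 to 0.19 with 1 library left out). POLR1C, a subunit shared with RNA polymerase III and named here after its values were seen, differed in the opposite direction (-0.24, SE 0.12, and -0.15 without siCTR replicate 2) and did not overlap between groups. RRN3, which recruits the polymerase to the ribosomal promoter, was counted at only 6, 7 and 7 reads in siCTR and 4, 4 and 6 reads in siLSD1.

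**Figure D2:**
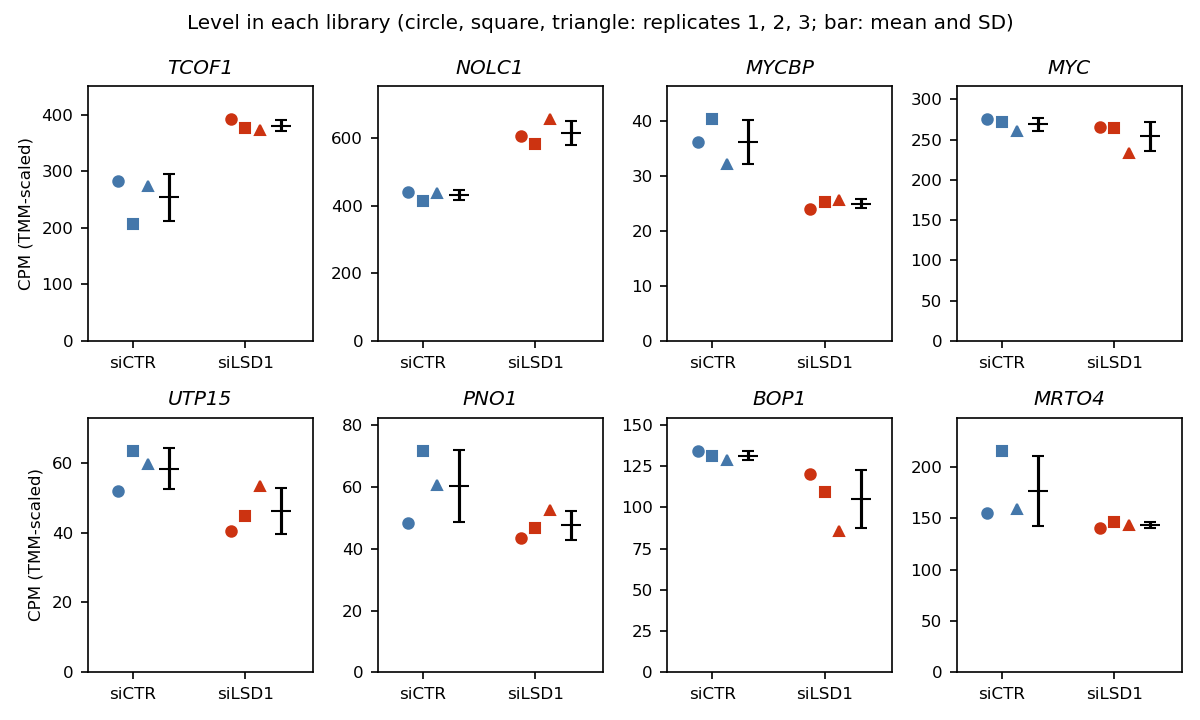
CPM of 8 genes in each library, with circles, squares and triangles for replicates 1, 2 and 3 and the mean and SD beside them. TCOF1 and NOLC1 are higher and MYCBP is lower in every siLSD1 library than in any siCTR library, whereas MYC overlaps, and in PNO1 and MRTO4 siCTR replicate 2 is the highest point.

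NOLC1 was the other upregulated gene. It encodes Nopp140, an abundant phosphoprotein of the nucleolus and Cajal bodies that binds snoRNPs and RNA polymerase I, and it is related to treacle by long runs of acidic and basic repeats. NOLC1 (chr10:102152176-102163871, plus strand) had 5730, 5312 and 5893 reads in siCTR and 8135, 7280 and 8850 reads in siLSD1, or 441, 414 and 438 CPM against 606, 584 and 656 CPM. The gap between the groups was wider than the spread within either of them. Its mean was 431 ± 15.2 CPM in siCTR and 616 ± 36.9 CPM in siLSD1 (SD, n = 3 each), a rise of 42.8%.

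The log2 fold change of NOLC1 was 0.51 (SE 0.11, 95% confidence interval 0.29 to 0.74) with an adjusted p of 0.0308 with edgeR's quasi-likelihood test and Benjamini-Hochberg adjustment. Unlike TCOF1, it stood at nearly the same level in siCTR replicate 2 as in the other siCTR libraries. Leaving out siCTR replicate 2 kept the call (adjusted p = 0.045 by the same test), and leaving out any other library ended it, with adjusted p-values from 0.0671 to 0.135 and log2 fold changes from 0.47 to 0.56 over all 6. Neither TCOF1 nor NOLC1 overlaps another counted gene in the annotation used here.

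The other abundant nucleolar proteins did not pass the threshold. NCL, nucleolin, a chaperone of ribosomal RNA and of nucleolar chromatin, had 1354, 1500 and 1359 CPM in siCTR and 1351, 1432 and 1473 CPM in siLSD1 (log2 fold change 0.01, SE 0.11). NPM1, nucleophosmin, which helps assemble and export subunits, had 1357, 2045 and 1653 CPM in siCTR and 1257, 1446 and 1661 CPM in siLSD1 (-0.21, SE 0.15). For NPM1 the difference moved with single libraries, and it was -0.05 without siCTR replicate 2 and -0.35 without siCTR replicate 1. DDX21, an RNA helicase that links RNA polymerase I transcription and snoRNA release, ranged from 744 to 876 CPM in siCTR and from 781 to 940.0 CPM in siLSD1 (0.11, SE 0.12, 0.05 to 0.18 with 1 library left out). NPM1 has processed pseudogenes, and its counts are uncertain to the extent that reads were shared with them.

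Per unit of length, NPM1 and NCL stood above all other genes of the set. In siCTR libraries NPM1 had 644.8 ± 124 FPKM, NCL 347.5 ± 16.5, DDX21 159 ± 14.4 and NOP10, a small H/ACA protein, 111 ± 30.7 (SD, n = 3 each). NPM1, NCL and DDX21 were each separated from their neighbour by more than their SD, whereas NOP10 and the next genes were not. NOLC1 followed with 108.5 ± 5.07 FPKM in siCTR and stood at 155 ± 8.95 FPKM in siLSD1, next to the siCTR level of DDX21. MYC was eleventh in this order in siCTR libraries, and TCOF1 was 19th with 44.4 FPKM. At the lower end were MXD1 with 2.11 FPKM, PPAN with 1.73, NOP2 with 0.379, RRN3 with 0.129 and MYCN with 0.0384, and FBL was listed at 0 in all siCTR libraries.

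FBL, RRN3 and NOP2 are genes that every growing cell is known to use, so their near absence from the table cannot be read as a level of expression. FBL, fibrillarin, the methyltransferase of box C/D snoRNPs, had a single read in 1 siLSD1 library and none in the other 5 libraries. NOP2, a methyltransferase of the large subunit RNA, had 25, 20 and 8 reads in siCTR and 20, 10 and 17 reads in siLSD1. PPAN, a large subunit factor that shares a readthrough transcript with its neighbour P2RY11, had 46, 36 and 36 reads in siCTR and 44, 24 and 38 reads in siLSD1. These genes were listed at or near 0 in both groups, and the step that assigned reads to genes is not given in the sources used here.

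**Figure D3:**
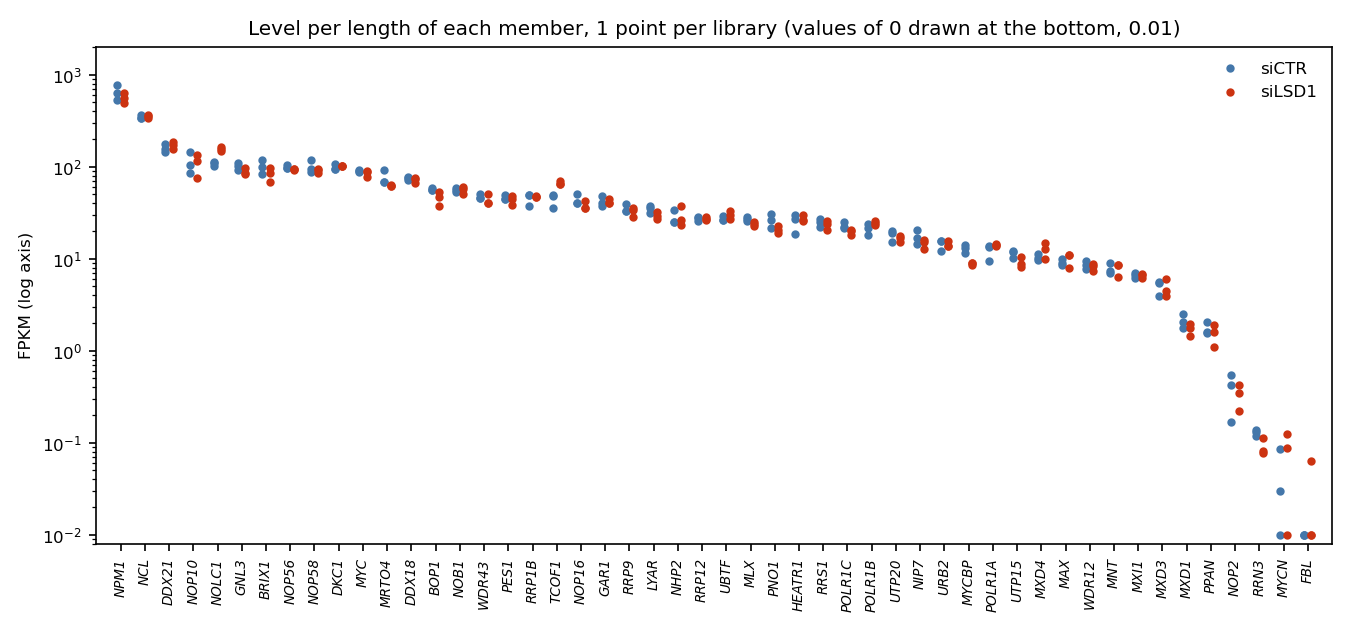
FPKM of the 50 genes in each of the 6 libraries on a log axis, ordered by their mean in siCTR libraries, with values of 0 drawn at 0.01. The set spans from NPM1 at 644.8 FPKM to FBL, with NOLC1 and TCOF1 visibly higher in siLSD1 libraries and MYCBP lower.

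The snoRNP core proteins did not differ past the threshold. NOP56, a core protein of box C/D snoRNPs, which guide ribose methylation, had 231, 256 and 233 CPM in siCTR and 217, 225 and 227 CPM in siLSD1 (log2 fold change -0.11, SE 0.10, and -0.06 without siCTR replicate 2). All siLSD1 values were below all siCTR values, by a margin smaller than the spread within siCTR. DKC1, the pseudouridine synthase of box H/ACA snoRNPs and of telomerase, had 291, 337 and 291 CPM in siCTR and 308, 313 and 317 CPM in siLSD1 (0.03, SE 0.11), so its siLSD1 libraries lay inside the siCTR range. The 4 proteins of the H/ACA core, DKC1, NHP2, NOP10 and GAR1, had log2 fold changes between -0.04 and 0.05. That range depended on single libraries, since without siCTR replicate 2 all 4 were above 0 (0.11 to 0.22), without siCTR replicate 1 or 3 all 4 were below 0, and without siLSD1 replicate 1 they lay between -0.21 and 0.04. Within the annotation, 7 genes of the set carry 25 snoRNA genes in their bounds, GNL3 with 6 and NOP56 with 5 having the most, and the table holds no rows for these small RNAs.

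Most small subunit factors had values slightly below 0. Of 8 genes tested, 7 lay below 0, with a median log2 fold change of -0.12, and 2 were lower at the unadjusted threshold, which 6.55% of all genes passed in that direction. The median was -0.06 without siCTR replicate 3 or without siLSD1 replicate 1, and none passed that threshold without siCTR replicate 2 or 3 or siLSD1 replicate 1 or 2. UTP15, a subunit of the complex that first binds the growing ribosomal transcript, had 51.8, 63.4 and 59.6 CPM in siCTR and 40.5, 44.8 and 53.3 CPM in siLSD1. Only siLSD1 replicate 3 reached into the siCTR range. The log2 fold change was -0.33 (SE 0.14), with an unadjusted p of 0.0287 and an adjusted p of 0.283 with edgeR's quasi-likelihood test and Benjamini-Hochberg adjustment.

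PNO1, which positions the nuclease that finishes the small subunit RNA, had 48.4, 71.6 and 60.5 CPM in siCTR and 43.4, 46.5 and 52.5 CPM in siLSD1 (log2 fold change -0.34, SE 0.15, adjusted p = 0.318 with edgeR's quasi-likelihood test and Benjamini-Hochberg adjustment). Its siCTR values spread more than the groups differed, and the log2 fold change was -0.19 without siCTR replicate 2 and -0.48 without siCTR replicate 1. NOB1, that nuclease itself, ranged from 91.2 to 104 CPM in siCTR and from 87.4 to 103 CPM in siLSD1 and had a log2 fold change of 0.00 after rounding (SE 0.11). UTP20, a scaffold protein of the small subunit processome, ranged from 141 to 179 CPM in siCTR and from 137 to 160 CPM in siLSD1 (-0.12, SE 0.12, -0.21 to -0.05 with 1 library left out). HEATR1, another long scaffold of this particle, had 233, 165 and 262 CPM in siCTR and 221, 231 and 261 CPM in siLSD1. Its difference of 0.11 (log2) was -0.05 without siCTR replicate 2 and 0.26 without siCTR replicate 3.

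Of the 14 large subunit factors tested, 12 lay below 0, with a median log2 fold change of -0.17, and BOP1 and MRTO4 were lower at the unadjusted threshold, which 6.55% of all genes passed in that direction. With 1 library left out, 0 (without siLSD1 replicate 2) to 2 genes passed it. The median was -0.08 without siCTR replicate 2 and -0.09 without siLSD1 replicate 2, with 13 and 10 genes below 0. BOP1, PES1 and WDR12 form the PeBoW complex, which is needed for processing of the large subunit RNA. BOP1 had 134, 131 and 129 CPM in siCTR and 120, 109 and 85.7 CPM in siLSD1 (-0.32, SE 0.13, adjusted p = 0.273 with edgeR's quasi-likelihood test and Benjamini-Hochberg adjustment). All siLSD1 libraries were lower, siLSD1 replicate 3 by the most, and the log2 fold change was -0.20 without it and -0.43 without siLSD1 replicate 1.

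The longest annotated transcript of BOP1 has a GC content of 65.6%. With the GC and length correction its log2 fold change was -0.12, no longer past the unadjusted threshold. The part of GC content in the value of BOP1 was not tested further. The partners of BOP1 in the complex had log2 fold changes closer to 0. PES1 had 129, 148 and 130 CPM in siCTR and 141, 131 and 115 CPM in siLSD1 (-0.07, SE 0.12), and WDR12 had 61.5, 78.1 and 69.0 CPM in siCTR and 58.4, 67.6 and 72.1 CPM in siLSD1 (-0.07, SE 0.13). Both overlapped between the groups, and leaving out single libraries gave -0.14 to 0.01 for PES1 and -0.16 to 0.02 for WDR12. Whether BOP1 differs from its partners was not tested.

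MRTO4, which holds the place of a stalk protein on the immature large subunit, had 155, 216 and 159 CPM in siCTR and 141, 146 and 144 CPM in siLSD1 (-0.30, SE 0.13, adjusted p = 0.324 with edgeR's quasi-likelihood test and Benjamini-Hochberg adjustment). The siLSD1 values were close together and below all siCTR values, and the log2 fold change was -0.13 without siCTR replicate 2 and -0.39 without siCTR replicate 1. GNL3, nucleostemin, a GTPase of the nucleolus that is high in stem and tumour cells, had 195, 240.0 and 216 CPM in siCTR and 178, 186 and 210.0 CPM in siLSD1 (-0.18, SE 0.12, and -0.10 without siCTR replicate 2). The other 9 large subunit genes had log2 fold changes between -0.27 and 0.06 with no p under the unadjusted threshold, and with 1 library left out the extremes were -0.55 and 0.15, both from NOP2 with its few reads.

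Counting genes whose groups did not overlap gave a similar picture. Every siLSD1 library was above every siCTR library for 3 of the 47 genes (6.38%, against 11.4% of all genes tested), namely TCOF1, NOLC1 and POLR1A. Every siLSD1 library was below for 6 of them (12.8%, against 9.97% of all genes), and these were MYCBP, MLX, POLR1C, NOP56, BOP1 and MRTO4. MLX and POLR1C were named after their values were seen. The other 38 genes overlapped between the groups. With 3 libraries in each group, an exact permutation test of a single gene cannot give a p below 0.1.

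The share of genes past a threshold moved with the GC and length correction, which removes each library's smooth trend on both properties. With it, 4 of the 47 genes (8.51%) had an adjusted p under 0.05, against 7.45% of all 11761 genes in that fit, and they were TCOF1, NOLC1, MYCBP and UTP15. The log2 fold changes of TCOF1 and NOLC1 were then 0.55 and 0.47, and that of UTP15 was -0.36. The 47 genes had a median GC content of 48.1% (47.9% over all genes tested), a median length of 3040 nt (3750 nt) and a median level of 96.8 CPM (36.8 CPM), so they were shorter and more highly expressed than the median gene tested.

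The length trend of siCTR replicate 2 was visible within the set. The log2 ratio of this library to the mean of the other siCTR libraries correlated with gene length across the 47 genes with a Spearman rho of -0.682, against -0.499 across all genes (a description across genes of the same libraries, which are not independent). The median log2 ratio was 0.255 for the 22 genes under 3000 nt and -0.312 for the 12 genes of 5000 nt or more. NOP10 with 0.65, MRTO4 with 0.46 and NPM1 with 0.45 were among the genes raised most in this library, and HEATR1 with -0.58, POLR1A with -0.48 and TCOF1 with -0.42 were among those lowered most. Its part in the results was not tested beyond the values given without that library.

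**Figure D4:**
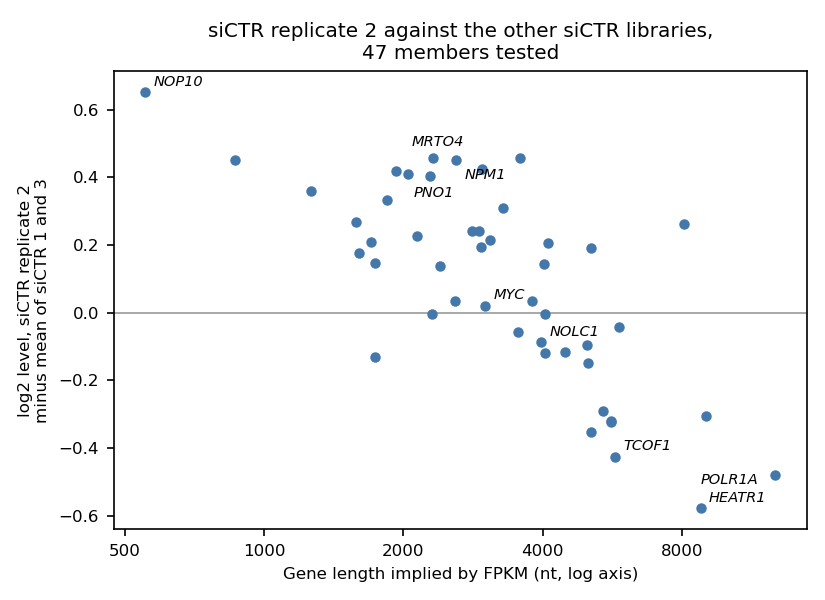
Log2 level of each of the 47 tested genes in siCTR replicate 2 relative to the mean of siCTR replicates 1 and 3, against gene length on a log axis. Points fall from left to right (Spearman rho -0.682), with the short gene NOP10 at the top and the long genes HEATR1 and POLR1A at the bottom, while MYC and NOLC1 lie near 0.

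Genes with and without the E-box word in their promoter had overlapping changes. The 15 tested genes with the word had a median log2 fold change of -0.12 (range -0.34 to 0.27), and MRTO4 and PNO1, both shown above, were past the unadjusted threshold, which 14.0% of all genes passed in either direction. The 22 tested genes with a promoter entry and without the word had a median of -0.07 (range -0.54 to 0.21), with MYCBP and UTP15 past that threshold. With 1 library left out the medians ranged from -0.172 to -0.071 with the word and from -0.105 to -0.03 without it. The difference between these groups was not tested.

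The same pathways hold many other genes, and 134 of them were listed by role, of which 126 were in the table and tested. None of the 126 had an adjusted p under 0.05 with edgeR's quasi-likelihood test and Benjamini-Hochberg adjustment, and at an unadjusted p under 0.05 none was higher and 7 were lower (5.56%), against 7.48% and 6.55% of all genes. Their median log2 fold change was -0.06, with 37 genes above 0 and 89 below, and it lay between -0.105 (without siLSD1 replicate 3) and -0.039 (without siCTR replicate 2) with 1 library left out. By limma-voom and by DESeq2 none was called either, and with the GC and length correction 2 were (NUFIP1 and PWP1). With 1 library left out, the number lower at an unadjusted p under 0.05 was 4 without siLSD1 replicate 2 (3.17%, against 3.79% of all genes) to 10 without siCTR replicate 1 (7.94%, against 6.58%). Beside the 47 genes, whose median was -0.07, these other genes also lay slightly below 0, and their highest value was 0.26.

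NUFIP1, an assembly factor of box C/D snoRNPs, had the lowest p of these genes. It had 197, 287 and 228 reads in siCTR and 158, 145 and 165 reads in siLSD1, or 15.2, 22.4 and 17.0 CPM against 11.8, 11.6 and 12.2 CPM, with no overlap. The log2 fold change was -0.61 (SE 0.17, unadjusted p = 0.00284, adjusted p = 0.104 with edgeR's quasi-likelihood test and Benjamini-Hochberg adjustment). The lowest log2 fold change among the other snoRNP and assembly genes, its list, was -0.43 without siCTR replicate 2 and -0.73 without siCTR replicate 1.

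Of 31 other small subunit processome factors, NOC4L (-0.35) and TBL3 (-0.31) were past the unadjusted threshold, which 6.55% of all genes passed in that direction. Both are rich in GC (64.2% and 63.8%) and were lowest in siLSD1 replicate 3, and the part of GC content was not tested. With 1 library left out, 1 (without siLSD1 replicate 3) to 4 (without siCTR replicate 1) of the 31 passed it. Of 39 other large subunit factors, PWP1 (-0.31), GRWD1 (-0.27), a chaperone of a ribosomal protein, and the helicase gene DDX51 (-0.31) passed it. Their number was 0 without siLSD1 replicate 2, 1 without siCTR replicate 2 and 5 without siLSD1 replicate 3. DDX51 was named after its value was seen. Of 16 metabolic and growth targets of MYC, only TERT, the catalytic subunit of telomerase, was past the same threshold (-0.41, SE 0.19). TERT had 108, 87 and 109 reads in siCTR and 74, 83 and 71 reads in siLSD1. No gene of these targets was past it without siCTR replicate 3 or without siLSD1 replicate 1. With all 6 libraries, none of the 12 other MYC network genes or of the 10 other genes of RNA polymerase I transcription was past it. The median log2 fold change of the metabolic targets was -0.11, with -0.17 without siCTR replicate 1 and -0.02 without siCTR replicate 2.

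**Figure D5:**
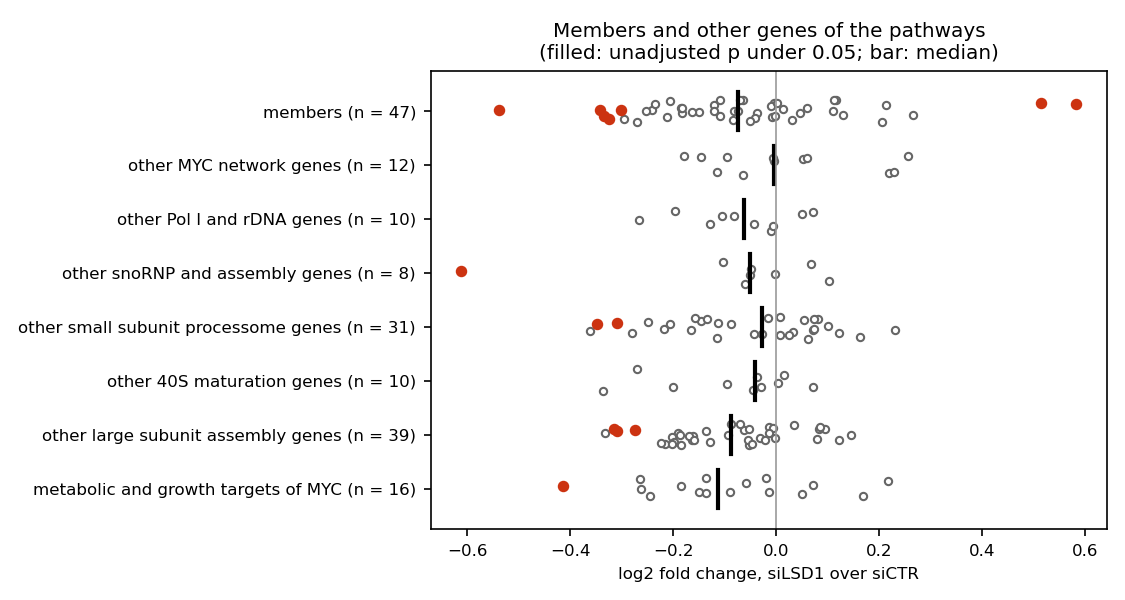
Log2 fold change (siLSD1 over siCTR) of the 47 tested genes of the set and of 126 other genes of the same pathways, 1 point per gene, with filled points for an unadjusted p under 0.05 and bars for the median. TCOF1 and NOLC1 are the only filled points above 0, and every median lies at or below 0.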

How the data were processed

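RNA-seq libraries of U2OS cells (3 siCTR, 3 siLSD1) were compared. The authors aligned reads with STAR and deposited whole read counts per gene without normalization, and FPKM values. The deposited tables for single pairs of libraries hold a second set of counts, higher by a median ratio of 1.11. The genome build, annotation and counting step are not given in the sources used here. The authors' own comparisons (DESeq2 fold changes and p-values) were not used. The members and gene lists were chosen with earlier results of these data known.

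Counts were tested in R 4.3.3 with edgeR 4.0.16 (TMM, filterByExpr at 10 reads, quasi-likelihood test, no covariates), and p-values were adjusted over 11844 genes (Benjamini-Hochberg). The biological coefficient of variation was 12.6%. Depth was 12513511 to 13561344 counted reads. Coordinates, GC content and overlaps came from GENCODE 44 on GRCh38 (15352 genes matched by symbol), and lengths from the ratio of counts to FPKM. The procedure was tested on simulated data. Named genes were KDM1A, every member with an unadjusted p under 0.05, 23 members fixed by name, and up to 2 genes of each other list. Alternatives used limma 3.58.1 and DESeq2 1.42.0, other scalings and filters, a replicate block, the second counting, a GC and length correction (lowess, span 0.3), and leaving out each library. Trends of single libraries on length and GC content, and list medians with 1 library left out, were examined after seeing the data. Python 3.11.15 was used for other steps.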

Additional observations from a re-analysis of the deposited data

How the results depend on the processing

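Of 47 members, 2 were called. With library size scaling the number was 1, with the replicate block 4, with the GC and length correction 4, with both of these together 5, and with 1 library left out 0 to 2. It was 0 without siCTR replicate 3 and without each siLSD1 library, and 1 (TCOF1) without siCTR replicate 1. At an unadjusted p under 0.05 there were 7 members, 11 with the replicate block, 12 with the GC and length correction, 12 with both (14.0%, 21.5%, 24.4% and 28.2% of all genes under these 4 settings), and 3 to 8 with 1 library left out (4 without siCTR replicate 2, of which 2 were higher and 2 lower, 4 without siLSD1 replicate 1 and 3 without siLSD1 replicate 2). Of the other pathway genes 0 were called, 2 with the replicate block (NUFIP1, EMG1), 2 with the GC and length correction (NUFIP1, PWP1) and 8 with both. The cause was not tested. Over all genes the calls numbered 171, 897 with the replicate block, 876 with the GC and length correction, 1277 with both, 323 with DESeq2, 290 without a filter and 58 to 136 with 1 library left out. MYCBP was called under the block, the correction, DESeq2 and no filter, and BOP1 under the block, while BOP1 moved to -0.12 with the correction. The replicate numbers were not taken to pair the libraries, because no label says what a number shares. The correlation of same-numbered deviations was 0.328, 0.0744 and 0.31, low only for replicate 2. Each library correlated best with its own number, and replicates 1 and 3 of different groups correlated at -0.286. The deposited pair tables also set libraries of the same number side by side, so the libraries may be paired, and this was not tested. Over 15 settings, 18 of 26 named genes kept their sign, and MXI1, MNT, DKC1, NCL, PES1, WDR12, HEATR1 and NOB1 did not. No scaling moved the median of all genes by over 0.1. The median half-width of the members' 95% intervals was 0.279 (log2) without block or correction, and smaller changes passed the unadjusted threshold with the correction (UTP20 at -0.20).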
